A study of Mus musculus with 32 samples.

Results

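The transcripts described here come from 10 of the 16590 genes on the arrays, in and at the edges of the R8 segment, a short stretch of distal mouse chromosome 1, and were measured by 15 probes among the 25697 on each array. The genes are B4galt3, Usp21, Ufc1, Dedd, Nit1, Pfdn2, Usf1, Alyref2, Pex19 and Nos1ap. Probes were taken by gene symbol, with Refbp2 read as the older symbol of Alyref2, and each probe was kept apart. The genes were selected on results of these same arrays, with the differences between the alleles of the segment in view. Those differences are therefore given as a description, with no p.

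Whole brain of naïve adult male mice was measured, 1 mouse per array, in 4 strains. D2 is the inbred strain DBA/2J (n = 6). R8 is a congenic in which a short piece of D2 chromosome 1 replaces that of an inbred C57BL/6J background (n = 10); the piece is known by a minimal interval and by a maximal one that adds the boundary regions where the chromosome switched. R2 is the reciprocal congenic and carries a longer B6 segment, which covers the whole R8 interval, on an inbred D2 background (n = 6). B6 is the inbred strain C57BL/6J (n = 10). D2 and R8 thus share the D2 alleles of the segment, while R2 and B6 share the B6 alleles; D2 and R2 share the D2 background and R8 and B6 the B6 background. Since the interval of R2 is the wider, D2 minus R2 compares the alleles of more of the chromosome than R8 minus B6 does. In whole brain, fewer cells of a type and less RNA per cell cannot be told apart.

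A congenic separates a gene's own chromosomal neighborhood from the rest of the genome. Where a transcript follows the allele of its own segment on both backgrounds, the levels of D2 and R8 lie together and apart from those of R2 and B6. Where it follows genes elsewhere, D2 and R2 lie together. The genes here serve unlike cell functions that are neighbors on the chromosome by position only. B4galt3 adds galactose to protein glycans in the Golgi, Usp21 removes ubiquitin from proteins, and Ufc1 is the conjugating enzyme for the ubiquitin-like modifier UFM1. Nit1 hydrolyzes deaminated glutathione, Pfdn2 is a subunit of the prefoldin co-chaperone that hands newly made actin and tubulin to the CCT chaperonin, and Alyref2 is an mRNA export adaptor. Dedd is a death effector domain protein, Usf1 a transcription factor of E-box sequences, Pex19 the carrier of peroxisomal membrane proteins, and Nos1ap a binding partner of the neuronal enzyme that makes nitric oxide.

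In RefSeq (GRCm38.p6) B4galt3 lies at chr1:171270328-171276895, Usp21 at chr1:171281949-171287961 and Ufc1 at chr1:171288564-171295002. Dedd follows at chr1:171324661-171342501, Nit1 at chr1:171340571-171345656 and Pfdn2 at chr1:171344954-171359254. Dedd and Nit1 overlap by 1931 bases, and Nit1 and Pfdn2 by 703 bases. Usf1 lies at chr1:171411307-171418954 and Alyref2 at chr1:171503478-171504750. These 8 genes are inside the minimal R8 interval. Pex19, at chr1:172126755-172136497, starts at about the distal end of the minimal interval and ends inside the distal boundary region. Nos1ap, at chr1:170315467-170589849, starts proximal of the maximal interval and ends inside the proximal boundary region. Which alleles R8 carries in the boundary regions is not settled by the intervals.

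The probes that carried the clearest differences are shown first, since the array reads a transcript only through these bases. Each probe has 50 bases, and 30 of them are given for B4galt3, for Usp21 and for the part that both Nit1 probes share. The Ufc1 probe can be read through without a stop codon in 2 of its forward frames, and the Pfdn2 probe in 3. The last 34 bases of the Nit1 probe ILMN_2732145 are the first 34 of ILMN_2754027, so the Nit1 probes read nearly the same site and are not independent of each other.
B4galt3 ILMN_2930764, first 30 bases: atggttcctaagaagctgtctggtggagga
Usp21 ILMN_2495939, first 30 bases: gtgacaccatcttgaagccctggcacctgt
Ufc1 ILMN_2744693: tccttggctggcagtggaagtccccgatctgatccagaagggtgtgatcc
Nit1, 30 of the bases shared by both probes: tcatgaaaactgaagttatgctgagggctg
Pfdn2 ILMN_1219667: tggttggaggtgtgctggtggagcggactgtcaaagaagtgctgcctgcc
The D2 sequence at these sites was not analysed here.

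B4galt3, Usp21 and Ufc1 lie close to each other, and the 250 bases upstream of their annotated starts are shown because their levels differed between the alleles in opposite directions. The sequences are those of RefSeq for C57BL/6J (GRCm38.p6), on each gene's own strand, and capitals mark matches, on either strand, to the E-box of USF (CACGTG), the cAMP response element (TGACGTCA), the box named for its letters CCAAT, the GC box (GGGCGG) and the TATA box (TATAAA).
B4galt3, chr1:171270078-171270327, plus strand: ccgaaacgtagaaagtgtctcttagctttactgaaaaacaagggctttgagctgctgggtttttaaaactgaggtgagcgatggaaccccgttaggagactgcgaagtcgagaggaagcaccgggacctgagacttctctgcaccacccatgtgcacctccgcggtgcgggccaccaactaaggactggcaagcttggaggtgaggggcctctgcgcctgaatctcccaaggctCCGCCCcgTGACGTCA
Usp21, chr1:171287962-171288211, minus strand: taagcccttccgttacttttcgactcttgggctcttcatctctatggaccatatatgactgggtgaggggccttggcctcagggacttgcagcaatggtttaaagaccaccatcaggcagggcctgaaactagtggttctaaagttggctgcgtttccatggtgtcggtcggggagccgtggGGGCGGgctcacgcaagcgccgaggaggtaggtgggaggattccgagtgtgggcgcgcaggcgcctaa
Ufc1, chr1:171295003-171295252, minus strand: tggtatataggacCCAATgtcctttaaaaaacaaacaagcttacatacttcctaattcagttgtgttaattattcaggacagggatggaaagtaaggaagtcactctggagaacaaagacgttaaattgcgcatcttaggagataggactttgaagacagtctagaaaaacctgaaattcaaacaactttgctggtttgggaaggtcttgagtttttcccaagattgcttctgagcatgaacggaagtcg
The B4galt3 window ends in TGACGTCA, the cAMP response element, whose letters occur in 1.55% of the 32851 mouse windows of this length and in no other of the 15 windows of these genes. A GC box (in 32.74% of all windows) was found for B4galt3 and Usp21, and CCAAT (in 33.85%) for Ufc1. The E-box of USF is in 6.02% of all windows and the TATA box in 12.37%, and neither was found in the windows of the 9 genes that had one. Pex19 had no window.

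Nit1 and Pfdn2 are transcribed away from each other from nearly the same place. Between a Nit1 start at 171345645 on the minus strand and the downstream of the annotated Pfdn2 starts, at 171345675 on the plus strand, lie 29 bases. They are printed here on the plus strand because the levels of these genes also differed in opposite directions. As whole genes Nit1 is annotated up to 171345656 and Pfdn2 from 171344954, so this stretch is not outside both genes.
Nit1 and Pfdn2, chr1:171345646-171345674: ggtaaccccccggccggatgtgacgcagt

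All 15 probes passed the detection filter (detection p under 0.01 in at least 6 of the 32 arrays), as did 12351 probes in all. Of the 15, 13 were detected on every array. The Dedd probe ILMN_2645074 was detected on 17 arrays (5 of D2, 5 of R8, 2 of R2 and 5 of B6) and the Usf1 probe ILMN_2435505 on 16 (4 of D2, 5 of R8, 2 of R2 and 5 of B6), so their levels rest close to background. Signals are given on the log2 scale after normalization, and levels are never compared between probes.

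Median raw signals per array were 424.7 to 535.0 in D2, 380.2 to 566.3 in R8, 396.4 to 558.3 in R2 and 382.8 to 578.5 in B6, and fell along the columns of the deposited table, whose blocks of 8 columns each held all 4 strains. No 2 arrays were identical. Markers of whole brain were present: all 5 astrocyte markers, all 4 measured oligodendrocyte markers and 3 of 5 neuronal markers (Syt1, Rbfox3 and Syp, but neither Snap25 nor Tubb3) were detected on every array. The summed signal of Gh, Prl and Pomc, hormone genes of the pituitary, was between 7.29 and 16.10 on the log2 scale and was above 10 on 6 arrays (2 D2, 2 R8, 0 R2 and 2 B6). Their part is given where leaving them out changed a call.

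The mean levels of B4galt3, Usp21 and Ufc1 differed with the allele of the segment on both backgrounds, B4galt3 being higher and the other 2 lower with the D2 allele. The B4galt3 probe ILMN_2930764 read 11.84 to 12.13 (median 11.93) in the D2 arrays and 11.77 to 12.12 (median 12.03) in the R8 arrays. It read 11.38 to 11.79 (median 11.52) in the R2 arrays and 11.35 to 11.58 (median 11.45) in the B6 arrays. No R8 array overlapped with any B6 array and no D2 array with any R2 array, and 15 of the 16 arrays with the D2 allele lay above all 16 arrays with the B6 allele. The difference was 0.56 ± 0.05 (SE) for R8 minus B6, a 1.47-fold higher signal, and 0.41 ± 0.07 for D2 minus R2, a 1.33-fold higher signal. The other B4galt3 probe, ILMN_1228544, read 9.87 ± 0.13 in D2, 9.95 ± 0.11 in R8, 9.75 ± 0.13 in R2 and 9.88 ± 0.16 in B6 (SD). Its differences ran in the same direction but were smaller, at 0.08 ± 0.06 for R8 minus B6 and 0.12 ± 0.08 for D2 minus R2 (SE), with the arrays of the strains mixed. The size of the B4galt3 difference thus depended on which probe read it.

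Usp21 was read by ILMN_2495939 at 8.45 to 8.99 (median 8.92) in D2 and 8.62 to 9.19 (median 8.85) in R8. The same probe read 9.11 to 9.66 (median 9.35) in R2 and 9.00 to 9.45 (median 9.27) in B6. All 6 D2 arrays were below all R2 arrays, and 7 of 10 R8 arrays were below all B6 arrays. Usp21 was lower by 0.38 ± 0.08 in R8 than in B6 and by 0.50 ± 0.11 in D2 than in R2 (SE), that is 0.768 and 0.706 of the signal. Ufc1, the next of these genes, read 12.51 to 12.92 (median 12.80) in D2 and 12.61 to 12.93 (median 12.78) in R8. It read 12.83 to 13.27 (median 13.15) in R2 and 12.88 to 13.17 (median 13.09) in B6. Here 7 of 10 R8 arrays were below all B6 arrays, and 3 of 6 D2 arrays were below all R2 arrays. The Ufc1 differences were nearly equal on both backgrounds, at -0.29 ± 0.06 for R8 minus B6 and -0.30 ± 0.08 for D2 minus R2.

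**Figure D1:**
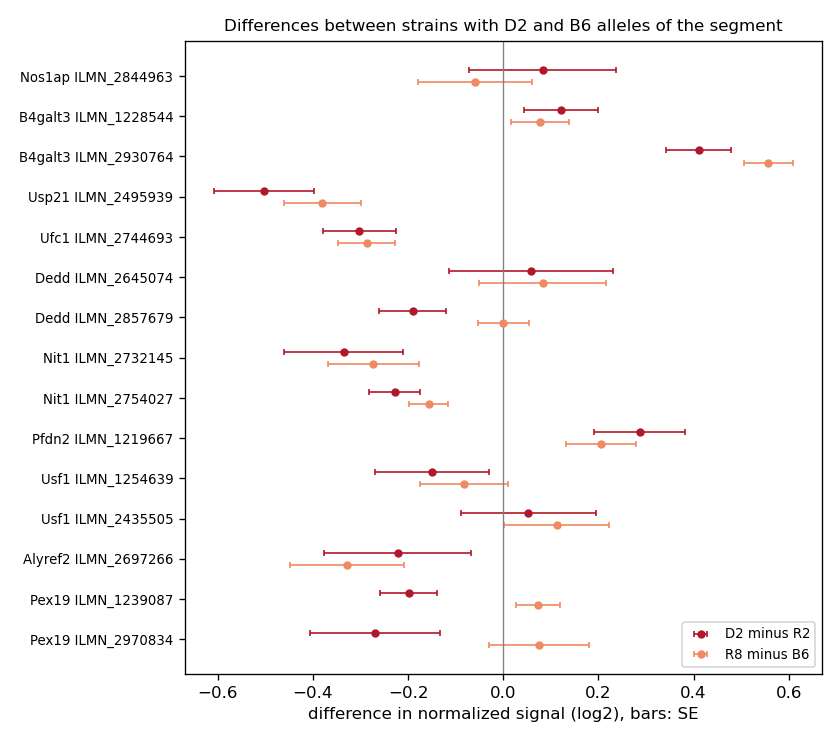
Differences in normalized log2 signal between strains that differ in the allele of the segment, for the 15 probes in chromosomal order from the proximal (top) to the distal end; dark points are D2 minus R2, light points R8 minus B6, and bars are SE. B4galt3 (ILMN_2930764) and Pfdn2 lie right of zero and Usp21, Ufc1, Nit1 and Alyref2 left of it in both comparisons. The Pex19 points lie left of zero for D2 minus R2 and close to it, on the right, for R8 minus B6. Whether R8 minus B6 compares different alleles of Pex19 is not settled.

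**Figure D2:**
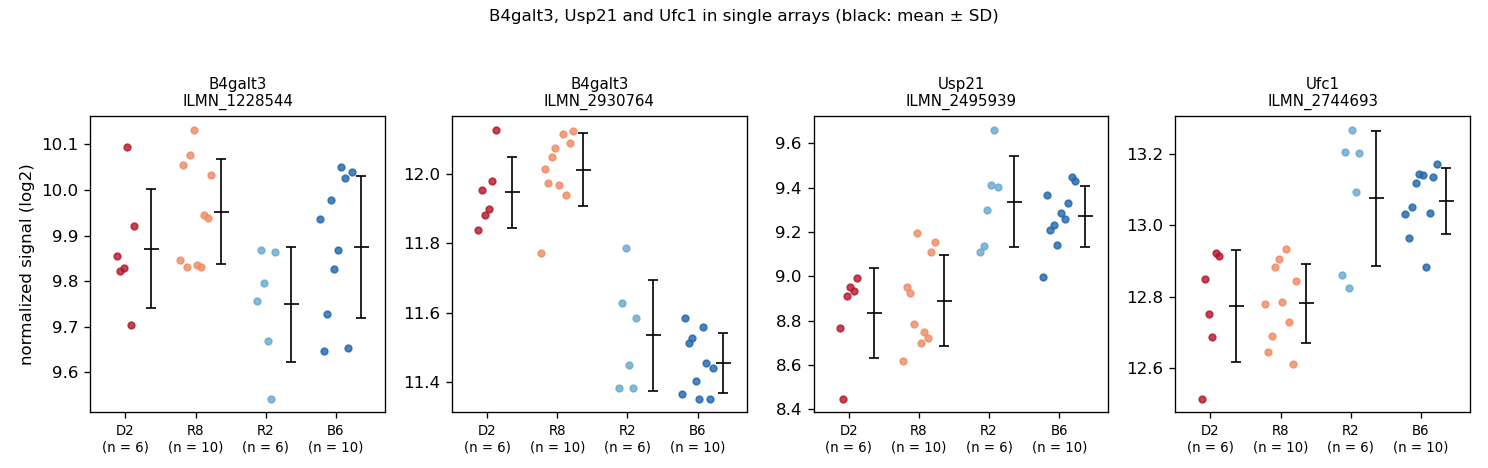
Normalized log2 signal of each array (points) for the B4galt3, Usp21 and Ufc1 probes in D2 (n = 6), R8 (n = 10), R2 (n = 6) and B6 (n = 10); black marks give the mean and SD, and each panel has its own axis. For B4galt3 ILMN_2930764 the 10 R8 arrays, from 11.77 to 12.12, all lie above the 10 B6 arrays, from 11.35 to 11.58.

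Nit1 and Pfdn2 differed in opposite directions, Nit1 being lower and Pfdn2 higher with the D2 allele. Nit1 ILMN_2754027 read 12.09 to 12.26 (median 12.14) in D2 and 12.01 to 12.21 (median 12.13) in R8, against 12.34 to 12.47 (median 12.37) in R2 and 12.08 to 12.41 (median 12.29) in B6. All 6 D2 arrays lay below all R2 arrays, and 4 of 10 R8 arrays lay below all B6 arrays. This probe differed by -0.16 ± 0.04 for R8 minus B6 and by -0.23 ± 0.05 for D2 minus R2, and the overlapping probe ILMN_2732145 by -0.27 ± 0.10 and -0.34 ± 0.13. Pfdn2 read 13.36 to 13.90 (median 13.59) in D2 and 13.37 to 13.91 (median 13.59) in R8, against 13.10 to 13.54 (median 13.35) in R2 and 13.10 to 13.63 (median 13.45) in B6. Its arrays overlapped, with 4 of 10 R8 arrays above all B6 arrays and 4 of 6 D2 arrays above all R2 arrays. The Pfdn2 difference was 0.21 ± 0.07 for R8 minus B6 and 0.29 ± 0.10 for D2 minus R2.

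The opposite course of Nit1 and Pfdn2 was also present among animals of the same strain. After the mean of each strain was taken off, the Pfdn2 probe correlated with Nit1 ILMN_2732145 at r = -0.58 and with Nit1 ILMN_2754027 at r = -0.44 over the 32 arrays. It correlated about as strongly with Pex19 ILMN_2970834 (r = -0.50) and Alyref2 (r = -0.48), so the opposite course was not limited to Nit1. The value of -0.58 was the lowest of the 105 pairs of the 15 probes, which ranged up to 0.66 with a median of 0.04. These values describe arrays that share 1 normalization, and their cause was not tested. The Nit1 probes correlated with each other at 0.44 in the same way, and the B4galt3 probes at 0.28. The Dedd probes did so at 0.18, the Usf1 probes at 0.17 and the Pex19 probes at -0.15, so the Pex19 probes did not run together within strains.

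Alyref2 was lower with the D2 allele but varied more from animal to animal. Its probe read 8.61 to 9.67 (median 8.93) in D2 and 8.27 to 9.22 (median 8.76) in R8. It read 8.95 to 9.60 (median 9.13) in R2 and 8.58 to 9.36 (median 9.19) in B6. The highest D2 array was above every R2 array, and 3 of 10 R8 arrays were below all B6 arrays. The differences were -0.33 ± 0.12 for R8 minus B6 and -0.22 ± 0.16 for D2 minus R2.

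**Figure D3:**
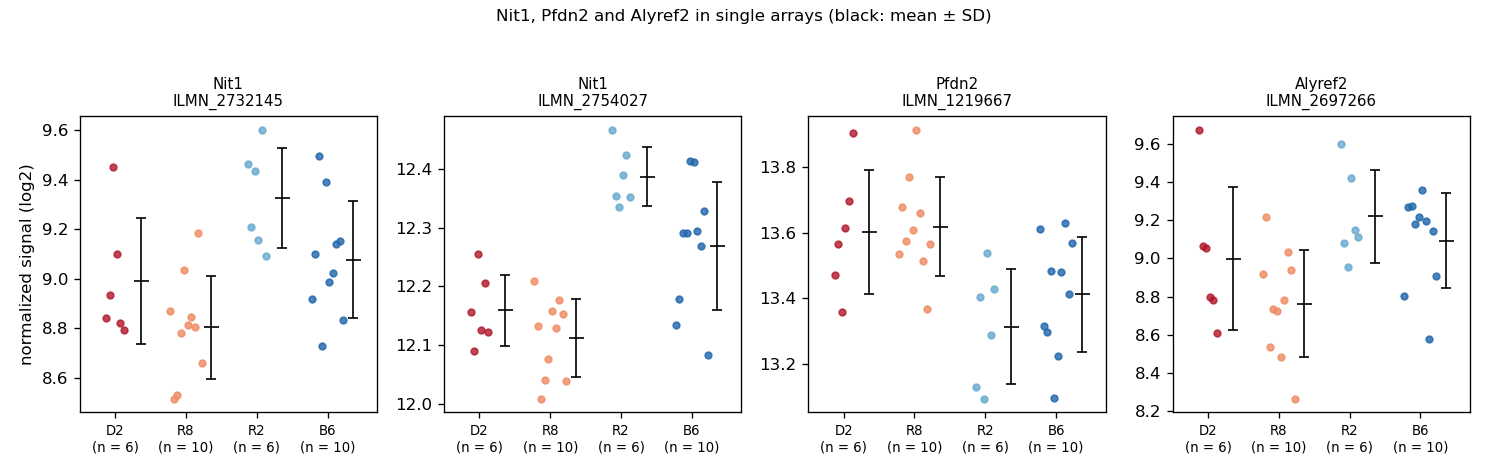
Normalized log2 signal of each array (points) for the Nit1, Pfdn2 and Alyref2 probes in D2 (n = 6), R8 (n = 10), R2 (n = 6) and B6 (n = 10); black marks give the mean and SD, and each panel has its own axis. D2 and R8 lie lower than R2 and B6 for Nit1 and higher for Pfdn2, with overlap between R8 and B6 for all of these probes.

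Dedd, Usf1 and Nos1ap showed little or no common difference between strains with D2 and B6 alleles of the segment. The Dedd probe detected on all arrays, ILMN_2857679, read 11.47 ± 0.17 in D2, 11.54 ± 0.11 in R8, 11.66 ± 0.06 in R2 and 11.54 ± 0.12 in B6 (SD). R8 and B6 thus had the same mean, with a difference of 0.00 ± 0.05 (SE), while D2 was lower than R2 by 0.19 ± 0.07. For Usf1 the better detected probe, ILMN_1254639, read 9.02 ± 0.27 in D2, 9.02 ± 0.27 in R8, 9.17 ± 0.11 in R2 and 9.10 ± 0.15 in B6. Its differences, -0.08 ± 0.09 for R8 minus B6 and -0.15 ± 0.12 for D2 minus R2, were smaller than the SD of D2 or R8. The second probes, near background, differed for R8 minus B6 and D2 minus R2 by 0.08 ± 0.13 and 0.06 ± 0.17 for Dedd and by 0.11 ± 0.11 and 0.05 ± 0.14 for Usf1. Nos1ap read 9.55 ± 0.13 in D2, 9.58 ± 0.34 in R8, 9.47 ± 0.25 in R2 and 9.64 ± 0.30 in B6, with differences of -0.06 ± 0.12 for R8 minus B6 and 0.08 ± 0.15 for D2 minus R2. Since Nos1ap starts proximal of the maximal R8 interval and ends in the boundary region, R8 minus B6 may not compare different alleles of this gene.

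In the fit of limma to all 12351 probes, 10 probes (0.0810%) passed an adjusted p of 0.05 for R8 minus B6 and 61 (0.494%) for D2 minus R2. Of the 15 probes described here, 2 and 3 were among them, and for the mean of both comparisons, called the allele effect, 4 of 15 were among the 37 called (0.300%). Because these contrasts were in view when the genes were chosen, nothing is read from those counts. The 4 probes were B4galt3 ILMN_2930764, Usp21, Ufc1 and Nit1 ILMN_2754027. The median size of the allele effect was 0.12 for the 15 probes, 0.06 for all probes tested and 0.46 for the 11 tested probes of other genes in the maximal R8 interval.

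The allele accounted for most of the variation of the leading probes. The genes were selected with the allele differences in view, so these shares are a description only. It took 83.9% of the sum of squares over the 32 arrays for B4galt3 ILMN_2930764, 59.2% for Usp21, 58.3% for Ufc1 and 52.9% for Nit1 ILMN_2754027, while the background took at most 0.0187% for the first 3 and 9.95% for the Nit1 probe. The other probes of B4galt3 and Nit1 had smaller allele shares. For B4galt3 ILMN_1228544 the allele took 10.75% and the background 12.2%, and for Nit1 ILMN_2732145 they took 28.3% and 14.5%. For Pfdn2 the allele took 34.7% and for Alyref2 21.0%. For the Pex19 probes the allele took 1.20% and 0.873%, against 27.9% and 27.3% for the background and 24.9% and 8.27% for the interaction, which measures how far the allele difference changes with the background.

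The background effect, the mean of R2 minus B6 and D2 minus R8, compares the genome outside the segment at equal alleles of the minimal R8 interval and was not used to choose the genes. For Pex19 and Nos1ap, whose alleles in R8 are not settled, it may compare the gene's own alleles as well. In limma it passed an adjusted p of 0.05 for 3 of the 15 probes, against 3460 of 12351 probes (28.0%). The 3 were both Pex19 probes, with negative effects to which D2 minus R8 gave the larger part, and Nit1 ILMN_2732145, higher on the D2 background. For R2 minus B6, 0 of 15 passed, against 2432 probes (19.7%); both Nit1 probes had an unadjusted p under 0.05, as had 3640 of the 12351 probes, and an ordinary 2-sample test, adjusted alike, also called 0. For D2 minus R8, 2 of 15 passed, both for Pex19, against 2421 probes (19.6%). The shares of these 15 probes were no higher than those of all probes. R2 minus B6 and D2 minus R8 each use arrays that also enter the allele differences, so their p-values are not independent of the selection.

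Pex19 was lowest in D2. The probe ILMN_1239087 read 12.26 to 12.41 (median 12.31) in D2 and 12.34 to 12.74 (median 12.61) in R8. It read 12.34 to 12.68 (median 12.53) in R2 and 12.47 to 12.67 (median 12.52) in B6. All 6 D2 arrays lay below all B6 arrays, and 4 of them below all R2 arrays and all R8 arrays. D2 minus R8 was -0.28 ± 0.05 (SE), 0.824 of the R8 signal (adjusted p = 0.000137 in limma), while R2 minus B6 was -0.01 ± 0.05 (95% interval -0.12 to 0.10, adjusted p = 0.95). The second probe, ILMN_2970834, read 9.73 to 10.89 (median 10.21) in D2 and 10.48 to 10.93 (median 10.73) in R8, with 10.26 to 10.82 (median 10.48) in R2 and 10.34 to 11.01 (median 10.59) in B6. Its D2 arrays were spread widely (SD 0.43, against 0.15 to 0.21 in the other strains), 4 of 6 lying below all R8 arrays. D2 minus R8 was -0.48 ± 0.12, 0.715 of the R8 signal (adjusted p = 0.00325), and R2 minus B6 was -0.14 ± 0.12 (95% interval -0.39 to 0.11, adjusted p = 0.49). The low D2 arrays also enter D2 minus R2, so for both probes the p of D2 minus R8 is not independent of how Pex19 was chosen.

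The background effect of Pex19 was -0.14 ± 0.04 for ILMN_1239087 (adjusted p = 0.00359) and -0.31 ± 0.09 for ILMN_2970834 (adjusted p = 0.00525). With median scaling in place of quantile normalization the first probe no longer passed, at -0.12 (adjusted p = 0.071). Within the blocks of 8 neighboring table columns, each with 1 or 2 D2 arrays, D2 minus R8 was -0.31 to -0.26 for ILMN_1239087 and -1.02 to -0.29 for ILMN_2970834, so D2 was lower in every block. For Pex19, R8 minus B6 was 0.07 ± 0.05 with the first probe and 0.07 ± 0.10 with the second. The intervals of these differences, -0.02 to 0.17 and -0.14 to 0.29, included 0. D2 minus R2 was -0.20 ± 0.06 and -0.27 ± 0.14, with intervals of -0.32 to -0.08 and -0.55 to 0.01. A difference common to both backgrounds, like that of Usp21 or Ufc1, was thus not seen, and a change of sign was not shown. Because Pex19 runs past the minimal R8 interval, R8 minus B6 may not compare different alleles of this gene. The interaction, D2 minus R2 less R8 minus B6, was -0.27 ± 0.08 and -0.34 ± 0.17 (SE). It is built of the differences that were in view at selection, so it is given as a description with no p. In limma 14 of all 12351 probes (0.113%) passed an adjusted p of 0.05 for it and 1020 had an unadjusted p under 0.05, against 0 and 2 of the 15, and nothing is read from these counts. Since Pex19 runs into the distal boundary region of R8, its own D2 allele and the D2 background cannot be told apart in D2 minus R8.

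**Figure D4:**
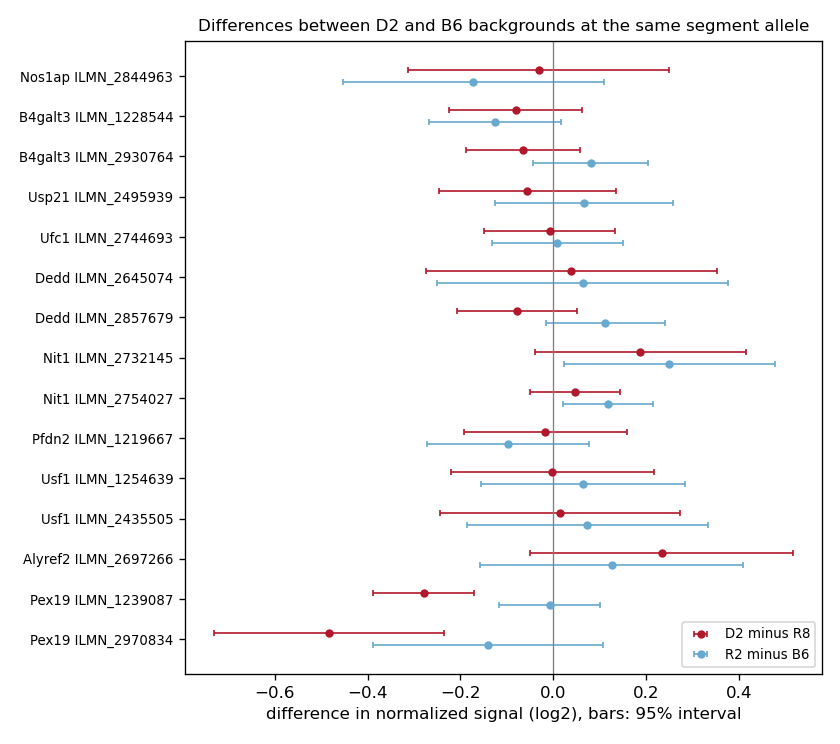
Differences in normalized log2 signal between backgrounds at the same allele of the minimal R8 interval, for the 15 probes in chromosomal order. Dark points are D2 minus R8, light points R2 minus B6, and bars are 95% intervals. For Pex19 and Nos1ap, whose alleles in R8 are not settled, D2 minus R8 may compare the gene's own alleles as well. The intervals of both Pex19 probes lie below zero for D2 minus R8, at -0.39 to -0.17 and -0.73 to -0.24, and include zero for R2 minus B6.

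**Figure D5:**
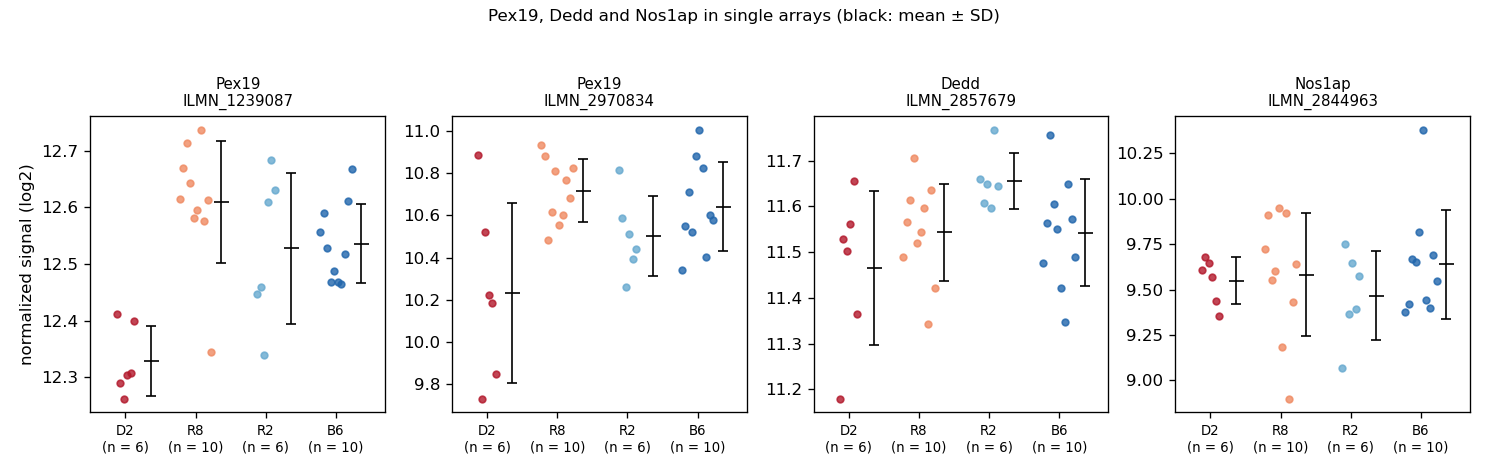
Normalized log2 signal of each array (points) for both Pex19 probes, the Dedd probe detected on all arrays and Nos1ap in D2 (n = 6), R8 (n = 10), R2 (n = 6) and B6 (n = 10); black marks give the mean and SD, and each panel has its own axis. For Pex19 ILMN_1239087 the D2 arrays, from 12.26 to 12.41, lie below every B6 array, while Nos1ap overlaps across all strains.

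Nit1 was lower with the D2 allele and, read by ILMN_2732145, higher on the D2 background. Its level with ILMN_2732145 was 8.99 ± 0.25 in D2, 8.80 ± 0.21 in R8, 9.33 ± 0.20 in R2 and 9.08 ± 0.24 in B6 (SD), so R2, with the B6 allele on the D2 background, was highest and R8 lowest. The background effect was 0.22 ± 0.08 (adjusted p = 0.0349) for this probe and 0.08 ± 0.03 (adjusted p = 0.067) for ILMN_2754027, and neither R2 minus B6 (0.25 ± 0.11, adjusted p = 0.12) nor D2 minus R8 (0.19 ± 0.11, adjusted p = 0.27) passed by itself for ILMN_2732145. The call of ILMN_2732145 was lost in several settings. Without the 6 arrays with pituitary transcripts its background effect was 0.13 (adjusted p = 0.29), with blocks of 8 by label number it was 0.20 (adjusted p = 0.075), and leaving out D2 replicate 3 alone gave 0.17 (adjusted p = 0.091).

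The background effects of the leading probes were close to zero and their intervals narrow. They were 0.01 (95% interval -0.08 to 0.10) for B4galt3 ILMN_2930764, 0.00 (-0.13 to 0.14) for Usp21 and 0.00 (-0.10 to 0.10) for Ufc1, with adjusted p of 0.92, 0.97 and 0.998. With these 3 probes D2 and R8, and likewise R2 and B6, were neighbors in level, and their differences did not exceed their spread. B4galt3 ILMN_1228544 was lower on the D2 background by 0.10 ± 0.05 and Alyref2 was higher by 0.18 ± 0.10, and neither passed (adjusted p = 0.13 and 0.19). For Dedd, Usf1, Pfdn2 and Nos1ap the background effects were between -0.10 and 0.05, with adjusted p from 0.49 to 0.83.

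The genes whose levels ran most like the leading probes over the 32 arrays were found by Pearson's r among all tested probes of other genes. For B4galt3 ILMN_2930764 these were Fcgr3 (r = 0.91), Adamts4 (r = 0.89) and Sdhc (r = 0.69), and for Usp21 they were Ppox (r = 0.78), Fcer1g (r = 0.77) and Vangl2 (r = 0.71). All 6 lie in the maximal R8 interval and share its alleles. For Nit1 ILMN_2732145 they were Ift57 (r = 0.78), Retreg2 (r = 0.77) and Slc12a5 (r = 0.75), none of which lies in the R2 interval. With the mean of each strain taken off, no segment gene was among the 3 most like B4galt3 or Usp21. The genes most like B4galt3 were then Mgat1 (r = 0.72), Acot8 (r = 0.69) and Renbp (r = 0.68), and those most like Usp21 were Usp11 (r = 0.67), Prkar1b (r = 0.67) and Syngr1 (r = 0.66), all on other chromosomes. For Nit1 ILMN_2732145 they were Kifbp (r = 0.78), Ift57 (r = 0.77) and Slc12a5 (r = 0.73), so Ift57 and Slc12a5 were among the highest for this probe both times. All these r values are the highest picked from all tested probes, and whether they exceed chance was not tested.

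No tested probe of the listed partners and relatives of the 10 genes, which lie outside the R2 interval, passed the test for the allele of the segment. Lists of such partners and relatives held 98 genes, of which 69 had at least 1 tested probe outside the R2 interval, with 98 probes in all. For the allele effect 0 of these 98 probes passed in limma, against 37 of 12351 (0.300%), and 13 had an unadjusted p under 0.05, against 1698 of 12351, so neither count sets these probes apart from the rest. Their median was 0.01 against 0.00 over all probes tested. The smallest adjusted p was 0.23, for a probe of Syn1, a synaptic vesicle protein of the Nos1ap list (0.12 ± 0.05). The other tested Syn1 probe, ILMN_2762083, differed in the opposite direction, at -0.121 ± 0.055 (adjusted p = 0.32). Among the UFMylation genes, which serve the pathway of Ufc1, Cdk5rap3 was at -0.10 ± 0.04 (adjusted p = 0.26) and Ddrgk1 at -0.12 ± 0.05 (adjusted p = 0.28). The other Ddrgk1 probe was at -0.04 ± 0.05. Among the peroxins, which build peroxisomes with Pex19, a probe of Pex5, the receptor of matrix proteins, was at 0.14 ± 0.06 (adjusted p = 0.28). The other tested Pex5 probes were at -0.06 ± 0.06 and 0.08 ± 0.06. Of the 12 prefoldin and CCT probes, which read the other subunits of Pfdn2's complex and the chaperonin it serves, 1 had an unadjusted p under 0.05, that of Vbp1 (0.17 ± 0.08, adjusted p = 0.31).

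For the background effect, 20 of the same 98 probes (20.4%) were called, 14 higher and 6 lower on the D2 background, against 28.0% of all probes. Ddx39b, an RNA helicase of mRNA export, averaged 14.23 in D2, 13.67 in R8, 14.38 in R2 and 13.68 in B6, a background effect of 0.63 ± 0.05 (adjusted p = 3.99e-13). Of its other tested probes ILMN_3007669 rose by 0.13 ± 0.04, while ILMN_1252389, at 0.16 ± 0.07, did not pass (adjusted p = 0.079). Dlg4, the postsynaptic scaffold PSD-95 in the Nos1ap list, averaged 10.52 in D2, 10.94 in R8, 10.37 in R2 and 11.05 in B6, a background effect of -0.55 ± 0.06 (adjusted p = 3.49e-09). Fhit, a dinucleoside hydrolase related to Nit1 through the NitFhit fusion protein of worm and fly, averaged 9.72 in D2, 9.24 in R8, 9.72 in R2 and 9.16 in B6, a background effect of 0.52 ± 0.06 (adjusted p = 5.66e-09). Within the peroxins 5 of 16 probes were called: Pex3, the membrane dock of Pex19, was higher with both its called probes (0.22 ± 0.05 and 0.16 ± 0.04), Pex14 was higher, and Pex7 was lower with both of its called probes. Of the 9 UFMylation probes Ufl1 (0.18 ± 0.06) and Ufsp1 rose and Cdk5rap3 fell, and of the 21 probes of USP deubiquitinases Usp28 (0.28 ± 0.06) and Usp46 rose and Usp30 and Usp2 fell. Of the other lists, mRNA export had 4 of 17 probes called (2 probes each of Ddx39b and Poldip3), prefoldin and CCT 1 of 12 (Pfdn4, 0.12 ± 0.04), the death effector proteins 1 of 4 (Fadd, 0.25 ± 0.07), the nitrilase partners 1 of 5 (Fhit) and the Nos1ap partners 1 of 6 (Dlg4). None of the 4 probes each of the galactosyltransferases and of the E-box factors was called, with 1 and 0 at an unadjusted p under 0.05.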

How the data were processed

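Whole brain RNA (Trizol) was labelled as biotinylated cRNA and hybridized to Illumina Mouse Ref8 v2 arrays, 32 in all. The deposited signal intensity is the average bead signal per probe, without normalization, and the deposited detection p-value compares it with background. A second table held intensity values that the authors had normalized by quantiles, and served as an alternative. Samples were grouped by the strain in their labels.

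For the present values limma 3.58.1 (R 4.3.3) was used: neqc (background from the detection p-values, offset 16, quantile normalization, log2), a detection filter (p under 0.01 in at least 6 arrays), and lmFit and eBayes over 4 strain means, with Benjamini-Hochberg adjustment over 12351 probes and an adjusted p under 0.05 as threshold. Genes were named through the platform's probe table and RefSeq; 23978 of 25697 probes had 1 symbol and 1719 had none. Probe sequences came from the study's supplementary annotation and promoters from RefSeq (GRCm38.p6). No gene of the partner lists lay in the R2 interval. Named genes were all probes of the 10 genes, up to 4 genes of each partner list with the smallest p, and the 3 genes most like the 3 probes with the largest allele effect.

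The 10 genes and all lists were chosen with earlier results of these data known. The labels do not say that animals came from separate litters, so p-values measure the spread between these animals. The number of arrays and signal over background limit the precision. The steps were tested on simulated data. Alternatives were other background corrections, scalings, filters, offsets, weights and blocks, the authors' normalized table, an ordinary 2-sample test, and leaving out each array.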

Additional observations from a re-analysis of the deposited data

Results flagged for a closer look

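Of 60 sets of arrays (15 probes in 4 strains), 4 held an array whose gap to its neighbor was large for the range of its strain (Dixon's test at 95%), where chance gives about 1 in 20. The Nos1ap probe read 10.38 in B6 replicate 6, with the next B6 array at 9.82. B4galt3 ILMN_2930764 read 11.77 in R8 replicate 1, below the next R8 array at 11.94 but above every B6 array. The Dedd probe near background, ILMN_2645074, read 7.56 in the same R8 animal, with the next at 8.00. Pex19 ILMN_1239087 read 12.34 in R8 replicate 10, the array with the highest summed pituitary signal (16.10), with the next R8 array at 12.58.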

How the results depend on the processing

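Under the 11 to 13 other settings that could be run for each count, 2 or 3 of the 15 probes were called for the background effect (3 in the main setting), 0 for R2 minus B6 and 2 for D2 minus R8, and the 2 of D2 minus R8 were the Pex19 probes every time. Leaving out each array gave 2 to 4, 0 to 1 and 2 to 2 in the same order. The 1 probe called for R2 minus B6 was of Nit1, ILMN_2732145 without B6 replicate 3 and ILMN_2754027 without B6 replicate 5 or 6. Nit1 ILMN_2732145 lost its background call without a detection filter (adjusted p = 0.060), with blocks by label number, without the pituitary arrays and in 9 of 32 fits with 1 array left out (D2 replicates 3 and 4, R8 replicates 2 and 3, R2 replicates 1, 3 and 5, B6 replicates 4 and 10; 0.17 to 0.21 in these and 0.17 to 0.24 over all 32), while ILMN_2754027 gained it with median scaling (0.11, adjusted p = 0.037) and without B6 replicate 5 or 6. The allele effects kept their sign under every setting for B4galt3, Usp21, Ufc1, Nit1, Pfdn2, Alyref2, Pex19 and the better detected probes of Dedd and Usf1, and changed sign in some for Nos1ap (-0.03 to 0.10), Usf1 ILMN_2435505 (-0.06 to 0.11) and, with 1 array left out, Dedd ILMN_2645074 (-0.01 to 0.12). Without background correction, and in the authors' normalized table, allele effects were smaller, at -0.28 for Usp21 (-0.44 in the main setting), -0.19 for Nit1 ILMN_2732145 (-0.30), -0.17 for Alyref2 (-0.28) and -0.07 for Usf1 ILMN_1254639 (-0.12). The largest sizes were -0.46 for Usp21 and, without the pituitary arrays, -0.37 for Nit1 ILMN_2732145. Of the partner probes 14 to 21 were called for the background effect (14 without the pituitary arrays, chosen after seeing the data, as were blocks of table columns) and 0 for the allele effect.

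Replicate numbers did not pair the animals: deviations of same-numbered arrays of different strains correlated at a median of -0.01 over 40 pairs (-0.29 to 0.41). With the replicate block, 3 probes were called for the background effect, 0 for R2 minus B6, and 2 for D2 minus R8, and 15 of 98 partner probes for the background effect. The probes near background limit what can be said of Dedd and Usf1.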
